A study of Homo sapiens with 6 samples.

Results

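The miR-193 and miR-365 clusters are a pair of related loci in the human genome, each of which holds 1 miR-193 gene and 1 miR-365 gene. They were measured on miRNA arrays of Panc-1, a cell line derived from a human pancreatic ductal adenocarcinoma (PDAC). The members were the miRNA probes whose name in the scanner output is a mature miRNA of these genes, and 7 of the 2565 miRNA probes were found by that rule. Of these, 3 belong to the chromosome 16 locus (hsa-miR-193b-3p, hsa-miR-193b-5p and hsa-miR-365a-5p), 3 to the chromosome 17 locus (hsa-miR-193a-3p, hsa-miR-193a-5p and hsa-miR-365b-5p), and 1 is named for both hsa-miR-365a-3p and hsa-miR-365b-3p. The prefix for human is left out in most of what follows. The study compared Panc-1 cells kept without TGF-β (0 ng/mL, 3 arrays) with Panc-1 cells treated with TGF-β at 10 ng/mL (3 arrays). All cells were kept for 72 h, and the labels name no genetic change in either group. The question addressed here is whether the miRNAs of these loci differed after TGF-β, and whether the chromosome 16 and chromosome 17 loci differed in that respect.

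A miRNA gene is transcribed as a longer RNA from which a hairpin is cut, and either arm of the hairpin (5p or 3p) can become the mature miRNA that guides repression of target mRNAs through its seed near the 5′ end. The miR-193 and miR-365 genes are described as lying near each other, and those of chromosome 16 as being made from a shared transcript. Described targets of miR-193b-3p include the mRNAs of urokinase-type plasminogen activator (PLAU), a protease of cell invasion, and of cyclin D1 (CCND1), which drives entry into the cell cycle; cyclin D1 is also a described target of miR-365-3p. TGF-β is a cytokine that induces epithelial–mesenchymal transition (EMT) in many carcinoma cells.

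The mature sequences are shown because they decide which arms can be told apart by hybridisation and which arms share a seed. They were taken from RefSeq (GRCh38.p14), where all 8 mature names carried by the 7 probes were found, and are written 5′ to 3′ with the seed, bases 2 to 8, in capitals. The first 4 are the arms of the miR-193 genes.
miR-193a-3p: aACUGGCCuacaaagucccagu
miR-193b-3p: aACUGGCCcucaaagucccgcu
miR-193a-5p: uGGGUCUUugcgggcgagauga
miR-193b-5p: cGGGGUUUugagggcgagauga
The others are the arms of the miR-365 genes.
miR-365a-3p: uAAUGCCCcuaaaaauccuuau
miR-365b-3p: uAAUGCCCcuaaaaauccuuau
miR-365a-5p: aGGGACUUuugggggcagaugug
miR-365b-5p: aGGGACUUucaggggcagcugu

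The 3p arms of the miR-193 genes shared their seed and 18 of 22 bases. Counting from 1 at the 5′ end and giving the base of miR-193a first, they differed at U9C, A10U, A20G and G21C. The 5p arms of the miR-193 genes also shared 18 of 22 bases, but 2 of their 4 differences (U1C, U5G, C6U and C11A) lay in the seed, so that these arms carry different seeds. miR-365a-3p and miR-365b-3p were identical over all 22 bases, and the signal of their shared probe cannot be given to either locus. miR-365b-5p and miR-365a-5p shared the seed and 19 of 22 bases, with the differences C10U, A11G and C19A (the base of miR-365b-5p first), and miR-365a-5p was 1 base longer at its 3′ end. No other miRNA on the array had the seed of a member among the sequences used, but these lack some mature miRNAs, so the search was not complete. How far the probes of these near-identical arms bind each other's targets was not tested.

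In GRCh38.p14, MIR193B lay at chr16:14303967-14304049 and MIR365A at chr16:14309285-14309371, both on the plus strand. Both fell inside MIR193BHG, a long non-coding RNA gene at chr16:14301381-14331062, and 5235 bases separated them. MIR193A lay at chr17:31559996-31560083 and MIR365B at chr17:31575411-31575521, also on the plus strand, with 15327 bases between them. MIR365B fell inside MIR365BHG, a long non-coding RNA gene at chr17:31571142-31575659, whereas MIR193A fell inside no RefSeq gene with 11058 bases between it and MIR365BHG. MIR4725, another miRNA gene inside MIR365BHG, was separated from MIR365B by 52 bases. The order of miR-193 before miR-365 was thus the same at both loci, and the map of the loci shows the wider spacing on chromosome 17.

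**Figure D1:**
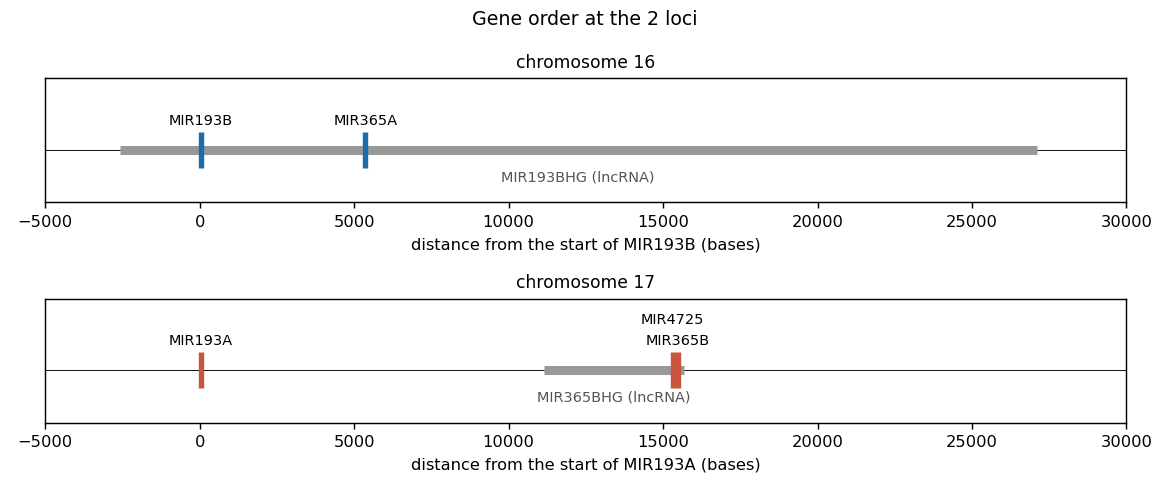
Map of the chromosome 16 and chromosome 17 loci, with distance in bases from the start of the miR-193 gene of each locus on the horizontal axis; vertical marks are miRNA genes at their midpoints, drawn wider than the genes, and grey bars are the long non-coding RNA genes of RefSeq to scale. MIR193B and MIR365A both lie in MIR193BHG, whereas MIR193A lies outside MIR365BHG.

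The arrays were checked before the members were read. The median spot signal was 20.4 to 24.1 intensity units per array, and the 288 blank spots kept per array had means of 18.2 to 21.3 and SDs of 0.528 to 0.768. A miRNA was called detected above the blank mean plus 2 SD, which left 1531 to 1787 detected miRNAs per array, and the 1457 that were detected on all 3 arrays of either group were tested. Log2 values of the arrays correlated at 0.984 to 0.992. All 7 miRNAs taken as abundant in cultured carcinoma cells were detected on all 6 arrays (miR-21-5p had a signal of 18373 to 25471), whereas the pancreatic acinar miRNAs miR-216b-5p and miR-217 were detected on none and miR-216a-5p on 2 TGF-β arrays. Markers of other cells were near the blanks: islet miR-375 was detected on 1 array, hepatocyte miR-122-5p on 3, and of 5 blood miRNAs only miR-142-3p was detected on all, at no more than 10.1 blank SDs. The scanner records carry 1 code for all control arrays and another for all TGF-β arrays, so that what this code marks and the treatment cannot be told apart. The labels do not say that the 3 samples of a group came from separate cultures, so the p-values measure only the spread between these samples, and no permutation of 3 against 3 arrays can give a p below 0.1.

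All 7 members were detected on all 6 arrays. After TGF-β, 6 of the 7 had a higher mean and 1 (miR-365b-5p) a lower one, beside 47.5% of all tested miRNAs with a higher mean, although miR-365a-5p lay below 0 under median and 75th percentile scaling and without normalization, and miR-365b-5p lay above 0 in the deposited values. With the local background, by normexp with an offset of 50 or by plain subtraction, only 3 of the 7 (miR-193b-3p, miR-193b-5p and the shared miR-365a-3p/miR-365b-3p probe) had a higher mean. Only miR-193b-3p passed the test, with a rise of 1.36-fold. Over all 1457 miRNAs tested, 2.61% were called higher and 1.37% lower by limma at an adjusted p under 0.05, against 1 and 0 of the 7 members. The median log2 fold change was 0.12 over the members and -0.01 over all miRNAs tested. For the chromosome 16 members it was 0.12 and for the chromosome 17 members 0.06. In 2 members, miR-193b-3p and miR-193a-5p, every TGF-β array was above every control array, which 8.79% of all tested miRNAs also showed, and in 10.1% every TGF-β array was below. In RNA from whole cultures, a change in the share of cells with a miRNA and a change in its amount per cell cannot be told apart.

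**Figure D2:**
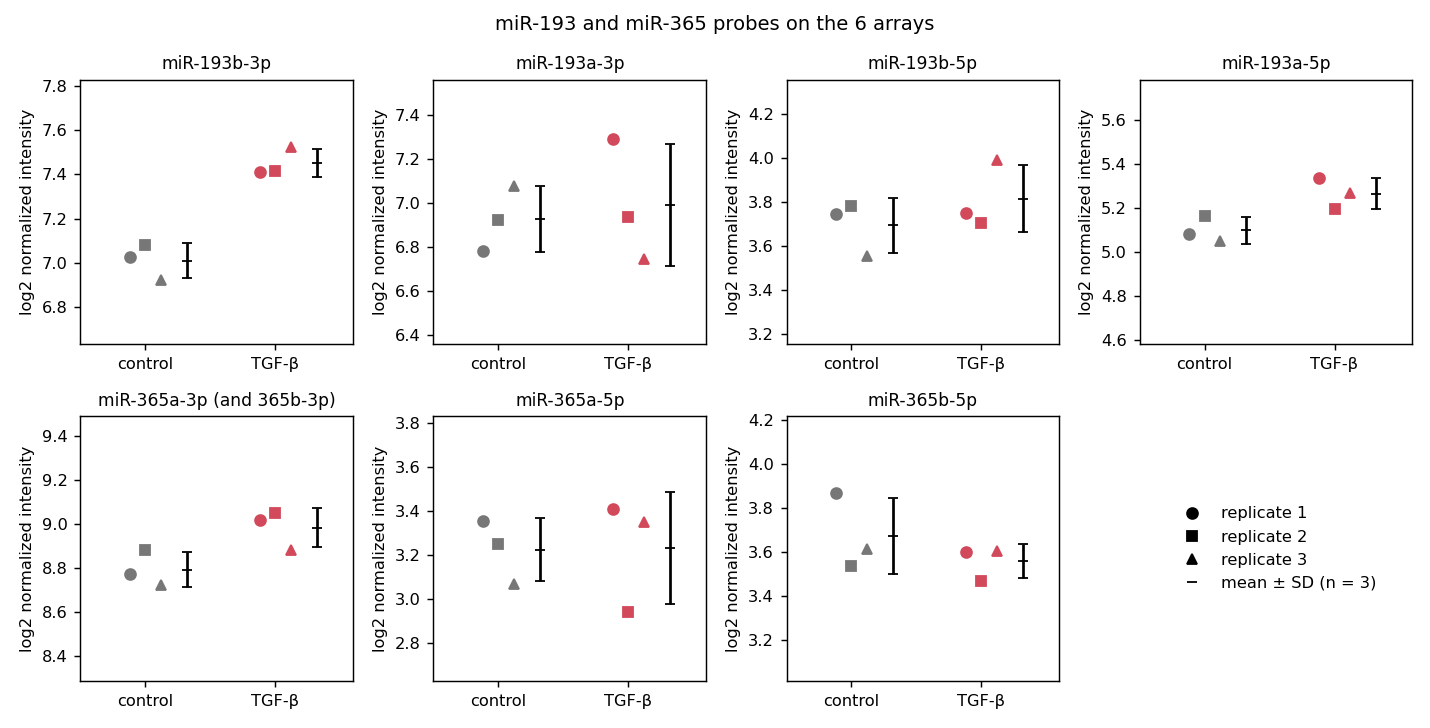
Log2 normalised intensity (vertical axis, 1 panel per member, each spanning the same log2 range around its own mean) on the control arrays (grey) and TGF-β arrays (red); circles, squares and triangles are replicates 1, 2 and 3, and the black bars give the mean ± SD (n = 3). Groups do not overlap for miR-193b-3p (6.92 to 7.08 against 7.41 to 7.53) and miR-193a-5p, and they overlap or touch for the other members.

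hsa-miR-193b-3p, the 3p arm of the chromosome 16 miR-193 gene, had spot signals of 139, 146 and 163 in the control cells and of 166, 203 and 209 after TGF-β. Normalised intensities were 130, 135 and 121 in control arrays 1 to 3 and 170, 171 and 184 in TGF-β arrays 1 to 3. The groups did not overlap, and the lowest TGF-β value lay well above the highest control value. The means were 129 ± 7.08 and 175 ± 7.93 (SD, n = 3 each). The log2 fold change was 0.44 with an SE of 0.08 (95% interval 0.27 to 0.62), which is 1.36-fold (1.20 to 1.53), and limma's adjusted p was 0.00817. The exact permutation test gave p = 0.1, the smallest this design allows. By size this rise ranked 112 and by p-value 31 among the 1457 miRNAs tested.

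The call of miR-193b-3p was lost with the scanner's local background. Around bright spots (signal above 200) the local background was itself high, with a median ratio to the signal of 0.434 to 0.990 per array, which is why the blank spots were used. Log2 values corrected with it correlated between arrays at 0.627 to 0.970. On control array 1 the scanner's local background around its spot (139.6) was above the spot signal itself (138.7), and over the 6 arrays the ratio of local background to signal was 0.333 to 1.01. With the local background corrected by limma's normexp method and an offset of 50, its log2 fold change was 0.23 and limma's adjusted p 0.987. Since that setting changes the offset along with the background, the choices were also run apart. Subtracting the local background alone gave 1.38 with an SE of 1.22 (adjusted p = 0.991 in limma), whereas adding the offset of 50 to the blank-corrected signal kept the call (0.33, adjusted p = 0.0114 in limma), as did no background correction (0.39, adjusted p = 0.0123 in limma). Without TGF-β replicate 3, which had the highest value, the log2 fold change was 0.39 and limma's adjusted p 0.0539. In the deposited processed values the control arrays had 497, 549 and 476 and the TGF-β arrays 610, 882 and 736. The direction was therefore the same, with no overlap, at a log2 fold change of 0.54 and an adjusted p of 0.216 in limma, where the median miRNA was higher by 0.11. The rise was above 0 in all 24 alternatives that were run and passed the test in 16 of them, narrowly when TGF-β replicate 2 was left out.

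**Figure D3:**
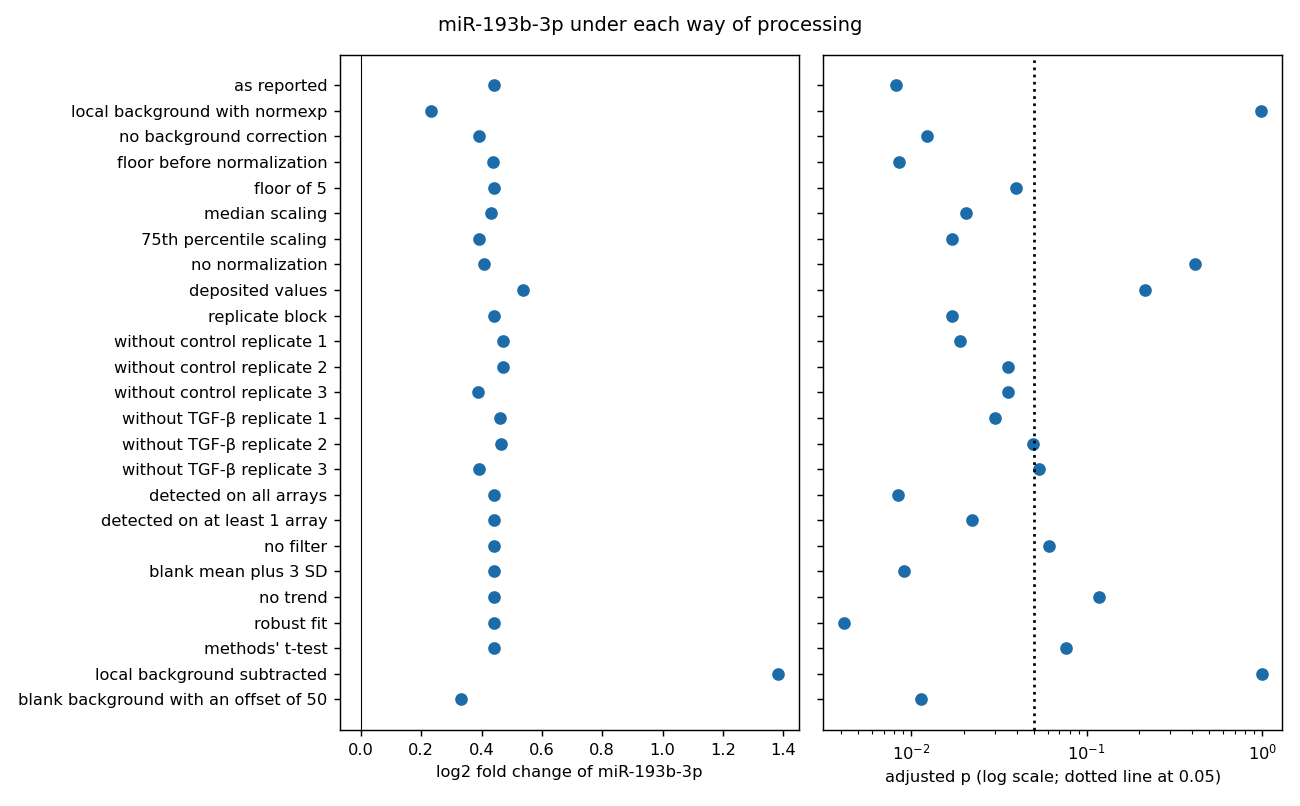
Log2 fold change of miR-193b-3p, TGF-β over control (left panel), and its adjusted p on a log scale (right panel, dotted line at 0.05), with 1 point for the processing reported and for each of its 24 alternatives (vertical axis). All fold changes lie above 0, from 0.23 with the local background by normexp to 1.38 with the local background subtracted, and 8 of the alternatives lie to the right of the dotted line.

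hsa-miR-193b-5p, the opposite arm of the same hairpin, was dim, with spot signals of 30.5 to 37.1 on the 6 arrays against blank means of 18.2 to 21.3. Its normalised intensities were 13.4, 13.8 and 11.7 in the control cells and 13.4, 13.1 and 15.9 after TGF-β. Only TGF-β array 3 stood above the control arrays. The log2 fold change was 0.12 with an SE of 0.13 (95% interval -0.18 to 0.42), and limma's adjusted p was 0.786. It was 0.03 without TGF-β replicate 3 and 0.05 without control replicate 3. With the local background it was 0.09 by normexp and 0.97 by subtraction (adjusted p = 0.991 in limma for the latter).

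hsa-miR-193a-3p carries the same seed as miR-193b-3p and comes from chromosome 17. Its normalised intensities were 110, 121 and 135 in the control cells and 156, 122 and 107 after TGF-β. The highest and the lowest values were both TGF-β arrays, and the groups overlapped fully. The means were 122 ± 12.6 and 129 ± 25.2 (SD, n = 3 each), with a log2 fold change of 0.06, an SE of 0.13 and a 95% interval of -0.23 to 0.35. The difference did not pass the test (adjusted p = 0.904 in limma; exact permutation p = 0.8). Its sign was not stable, since the log2 fold change was -0.09 without TGF-β replicate 1 and -0.20 with the local background by normexp (-0.52 by subtraction).

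hsa-miR-193a-5p, the opposite arm of miR-193a-3p, had normalised intensities of 33.8, 35.9 and 33.1 in the control cells and 40.4, 36.6 and 38.5 after TGF-β. The groups did not overlap, but the gap between control array 2 and TGF-β array 2 was narrow. The log2 fold change was 0.17 with an SE of 0.10 (95% interval -0.05 to 0.38), limma's adjusted p was 0.504 and the exact permutation p was 0.1. It lay at -0.02 with the local background by normexp and at -0.13 by subtraction.

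The shared probe of hsa-miR-365a-3p and hsa-miR-365b-3p had normalised intensities of 438, 472 and 423 in the control cells and 519, 530 and 472 after TGF-β. TGF-β arrays 1 and 2 were above all controls, and TGF-β array 3 was level with control array 2. The means were 444 ± 25.1 and 507 ± 31.0 (SD, n = 3 each). The log2 fold change was 0.19 with an SE of 0.07 (95% interval 0.03 to 0.35), which did not pass after adjustment (adjusted p = 0.244 in limma; exact permutation p = 0.2). It was above 0 in all 24 alternatives, from 0.15 to 1.56 (the highest with the local background subtracted), and passed in none of them. Local background was 0.696 to 1.01 of the signal of this probe.

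The 5p arms of the miR-365 genes were dim on these arrays. hsa-miR-365a-5p, from chromosome 16, had normalised intensities of 10.2, 9.51 and 8.39 in the control cells and 10.6, 7.68 and 10.2 after TGF-β, with a log2 fold change of 0.01, an SE of 0.16 and an adjusted p of 0.997 in limma. Its lowest spot signal was still 12.9 blank SDs above the blank mean. hsa-miR-365b-5p, from chromosome 17, had 14.6, 11.6 and 12.3 in the control cells and 12.2, 11.1 and 12.2 after TGF-β, with a log2 fold change of -0.12, an SE of 0.14 and an adjusted p of 0.795 in limma. The groups overlapped for both arms. The 95% intervals were -0.35 to 0.37 for miR-365a-5p and -0.41 to 0.18 for miR-365b-5p. The log2 fold change of miR-365b-5p was -0.02 without control replicate 1, -0.07 without TGF-β replicate 2 and -0.18 without control replicate 2.

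**Figure D4:**
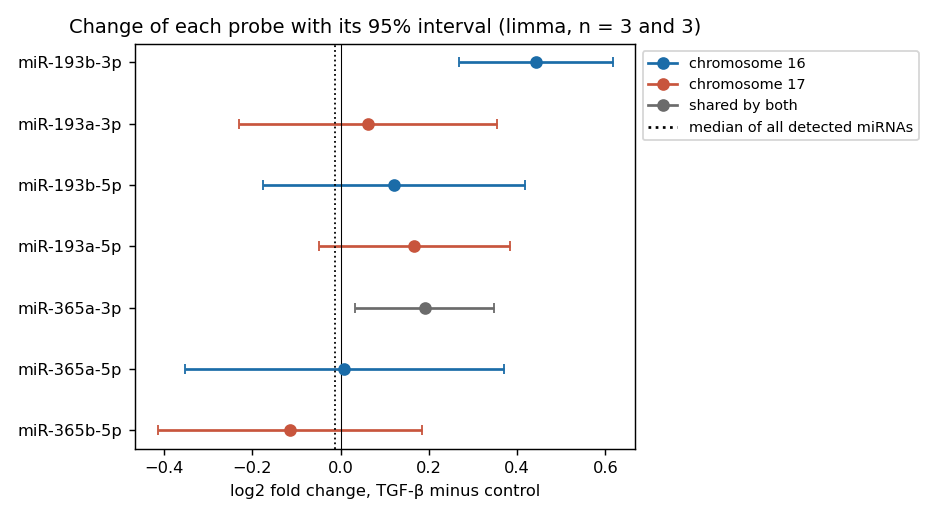
Log2 fold change of each member, TGF-β over control (horizontal axis), with its 95% interval from limma (n = 3 arrays per group), coloured by locus (blue, chromosome 16; red, chromosome 17; grey, the shared miR-365a-3p/miR-365b-3p probe); the dotted line is the median of all tested miRNAs. The intervals of miR-193b-3p and of the shared probe lie above 0, and those of the other 5 members include 0.

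The loci were compared through the arms that have a counterpart at the other locus, as a difference of their log2 values on each array, so that changes and not levels of different probes were compared. For miR-193b-3p minus miR-193a-3p, this difference was 0.24, 0.16 and -0.16 on control arrays 1 to 3 and 0.12, 0.48 and 0.78 on the TGF-β arrays. The chromosome 16 arm changed by 0.38 more than its chromosome 17 counterpart (SE 0.23, 95% interval -0.25 to 1.01), but the groups overlapped and the exact permutation test gave p = 0.3 (0.45 adjusted over the 3 pairs). This value was 0.21 without TGF-β replicate 3, 0.25 without control replicate 3 and 0.55 without TGF-β replicate 1 (exact permutation p = 0.1). It was 0.43 with the local background by normexp and 1.90 by subtraction (exact permutation p = 0.3 each). All 17 alternatives run for this pair gave a value above 0. The passing of miR-193b-3p and not of miR-193a-3p is therefore not a shown difference between the loci. For miR-193b-5p minus miR-193a-5p the change was -0.05 (SE 0.10, 95% interval -0.33 to 0.24; exact permutation p = 0.8, also 0.8 adjusted). This change was -0.14 without TGF-β replicate 3 and 0.02 without TGF-β replicate 1. With the local background the change was 0.12 by normexp and 1.09 by subtraction. For miR-365a-5p minus miR-365b-5p it was 0.12 (SE 0.13, 95% interval -0.24 to 0.49; exact permutation p = 0.3, adjusted 0.45), with 0.06 without TGF-β replicate 1, 0.07 without control replicate 3, 0.20 without control replicate 2 and 0.22 without TGF-β replicate 2. None of the 3 matched pairs differed between the loci beyond the spread of the arrays, and their intervals still allow differences in both directions, reaching from -0.33 to 1.01 over the 3 pairs.

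The arms of each hairpin were compared in the same way. For miR-193b, 3p minus 5p was 3.28, 3.30 and 3.37 in the control cells and 3.66, 3.71 and 3.54 after TGF-β. The groups did not overlap. The 3p arm rose by 0.32 more than the 5p arm (SE 0.06, 95% interval 0.16 to 0.48), with an exact permutation p of 0.1, the smallest possible, and 0.3 after adjustment over the 3 hairpins. The local background by normexp gave 0.14 (exact permutation p = 0.9) and by subtraction 0.42 (exact permutation p = 1), with overlapping groups in both, whereas the offset of 50 on the blank-corrected signal gave 0.31 and no background correction 0.34 (exact permutation p = 0.1 each). For miR-193a the change was -0.10 (SE 0.17, 95% interval -0.58 to 0.37; exact permutation p = 0.5, adjusted 0.6). This change was -0.22 without TGF-β replicate 1 and 0.01 without TGF-β replicate 3. With the local background the change was -0.17 by normexp and -0.39 by subtraction. For miR-365a, whose 3p value comes from the shared probe, it was 0.18 (SE 0.20, 95% interval -0.36 to 0.72; exact permutation p = 0.6, adjusted 0.6), and it was 0.0043 without TGF-β replicate 2, 0.11 without control replicate 1 and 0.29 without TGF-β replicate 3.

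**Figure D5:**
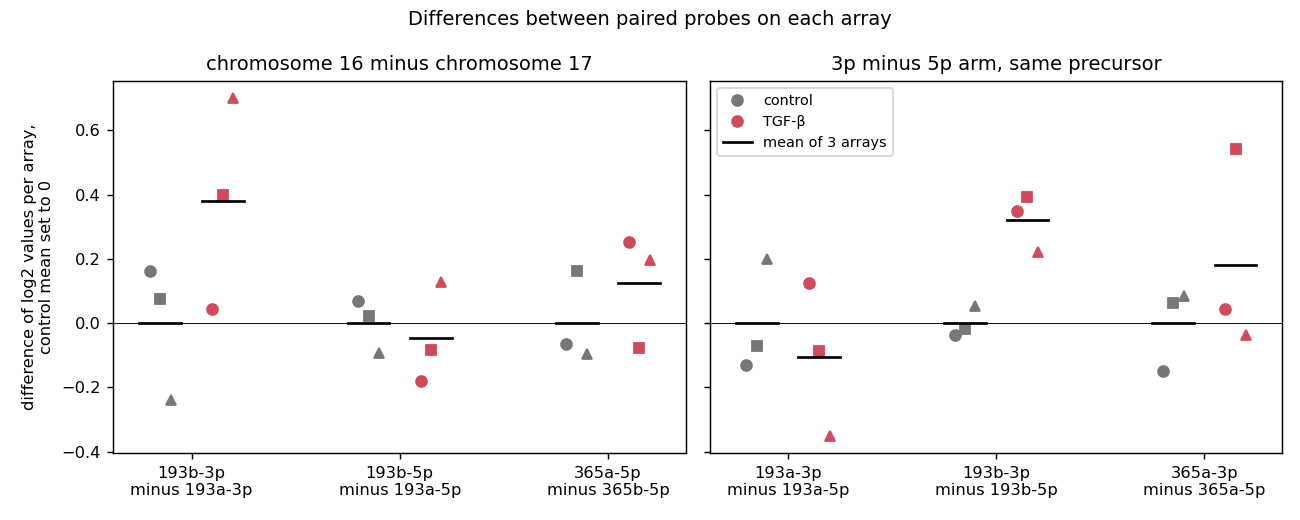
Difference of log2 normalised intensity between paired probes on each array, with the control mean of each pair set to 0 (vertical axis), for the arm pairs matched between loci (left) and the arms of each hairpin (right); grey points are control and red points TGF-β arrays, circles, squares and triangles are replicates 1, 2 and 3, and lines are means. Only for miR-193b-3p minus miR-193b-5p do all 3 TGF-β arrays lie above all 3 control arrays, with a mean difference of 0.32, and this separation was lost with the local background, by normexp or by subtraction.

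Other miRNAs of the same genomic surroundings were read from the same fit. Within 1 Mb of the member genes RefSeq holds 11 other miRNA genes, of which 18 mature miRNAs were on the array and 10 were tested. Of these, 5 were above 0 and 5 below and none was called (lowest adjusted p in limma 0.446), but with 2.61% of all miRNAs called higher and 1.37% lower, no call among 10 says nothing particular about these neighbours. miR-4725, which shares the host gene of MIR365B, had log2 fold changes of 0.45 for its 5p arm (adjusted p = 0.538 in limma) and 0.18 for its 3p arm (adjusted p = 0.820 in limma). The 5p arm was close to the blanks, at 2.53 to 6.02 blank SDs. The largest difference among the neighbours was -0.96 for miR-6511a-3p, also without passing (adjusted p = 0.446 in limma). Some of these genes, such as MIR6511A1 and MIR3180-1, are numbered copies, and array names were matched with the copy number left off. The signal of such miRNAs, miR-6511a-3p among them, may therefore not come from these genes alone.

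Cyclin D1 is a described target of miR-193b-3p and miR-365-3p, and 15 other miRNAs commonly described as its repressors were all tested. None was called higher and 2 were called lower, against 2.61% and 1.37% of all miRNAs. miR-34a-5p, a p53-induced miRNA, fell by 0.65 on the log2 scale (SE 0.08, adjusted p = 0.000833 in limma), and miR-16-5p, a member of the miR-15/16 family, fell by 0.32 (SE 0.06, adjusted p = 0.0155 in limma). Of the 15, 6 were above 0 and 9 below, with a median of -0.06. miR-193b-3p stood on the other side of 0 from the repressors that passed, and the mRNA of cyclin D1 was not measured here.

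The miRNAs whose pattern over the 6 arrays was most like that of each member were found by the root mean square difference of log2 values after each miRNA was centred on its own mean, over the 1275 miRNAs other than the members that were detected on all arrays. For miR-193b-3p they were miR-4707-3p (0.067) and miR-1185-2-3p (0.073), beside a median of 0.301 over all candidates. For miR-193a-3p they were miR-21-3p (0.045) and miR-132-5p (0.053), and for miR-193a-5p miR-99b-5p (0.021) and miR-370-3p (0.036). For the shared miR-365a-3p/miR-365b-3p probe they were miR-409-5p (0.042) and miR-493-5p (0.053). The dim arms were nearest to miR-6501-3p and miR-6124 (miR-193b-5p), miR-4284 and miR-1273e (miR-365a-5p), and miR-6805-5p and miR-1228-5p (miR-365b-5p). With 6 arrays from 2 groups this likeness is a description only.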

How the data were processed

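Total RNA of Panc-1 cells was labelled with Cy5 and hybridised to 3D-Gene miRNA arrays, 1 sample per array. The authors deposited the scanner output of each array, with the spot signal and local background as intensity on a linear scale and without normalization, and a table of processed intensity values. That table was rebuilt from the scanner output: all 9663 values matched within rounding to whole numbers. The sources used here do not give its method. The rebuild subtracted the trimmed mean of the blank spots and scaled each array to a common median over its detected miRNAs. Values of miRNAs not detected were left empty. For group comparisons in general the study's methods list Student's test, variance analysis and a rank-based test, without saying which of them the arrays were given.

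From the scanner output, each signal was reduced by the trimmed mean of the blank spots (5% trimmed from either tail), flagged spots (3 miRNA spots in all) were left out, quantile normalization was applied to the miRNA probes, values under 1 were set to 1, and log2 was taken. Groups came from the sample titles. Group means were compared with limma 3.58.1 in R 4.3.3 (lmFit, eBayes with an intensity trend), with Benjamini-Hochberg adjustment over the 1457 miRNAs detected (blank mean plus 2 SD) on every array of at least 1 group. A member was called at an adjusted p under 0.05. Pairs of probes were compared with exact, 2-sided permutation tests. The procedure was tested on simulated data with planted 2-fold changes and independent noise. The planted changes were larger than the 1.36-fold rise of miR-193b-3p, so that test does not cover changes of its size. Plots used matplotlib 3.10.9 under Python 3.11.15.

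The miRNAs named were the 7 members, those within 1 Mb of a member gene, those with a member's seed, the 2 most alike in pattern to each member, those of a cyclin D1 list that were called (otherwise its largest rise and fall), and cell type markers. The members and lists were chosen with earlier results of these data known. Alternatives covered the background (none, or the local background by normexp with an offset of 50), the floor, the normalization, the deposited values, the filter, the trend, the methods' test of means, the replicate number as a block, and leaving out each array. Plain subtraction of the local background, and the offset of 50 on the blank-corrected signal, were added after the other results were seen, to tell these choices apart. Precision was limited by the number of arrays.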

Additional observations from a re-analysis of the deposited data

How the results depend on the processing

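Of the 7 members, miR-193b-3p alone was called, and 0 members were called with the local background by normexp with an offset of 50, without normalization, with the deposited values, without a filter, without the intensity trend or by the methods' t-test, nor when TGF-β replicate 3 was left out (0 to 1 over the arrays left out). Adjusted p-values of miR-193b-3p were 0.987, 0.416, 0.216, 0.0613, 0.117 and 0.0761 in these 6 settings and 0.00416 to 0.991 over all 24. Over all miRNAs, 58 calls became 0 with the local background by normexp in limma (35 at an unadjusted p under 0.05) and 0 with it subtracted (30 unadjusted), against 53 with the offset of 50 on the blank-corrected signal; there were 35 without normalization, 20 without a filter, 17 by the methods' t-test (195 unadjusted), and 31 each with a floor of 5, the deposited values, detection on at least 1 array and no trend. Leaving out 1 array gave 26 to 51 calls, with 26 without TGF-β replicate 2, 33 without TGF-β replicate 3 and 35 without control replicate 2. With the replicate number as a block there were 61 calls and miR-193b-3p had an adjusted p of 0.0172 in limma; deviations of same-numbered arrays correlated at 0.13, 0.11 and -0.03, so the numbers were not taken as a pairing. The cause of the shifts other than those with the local background was not tested.

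Signs changed only for members and pairs that did not pass. With the local background by normexp the log2 fold changes were -0.20 for miR-193a-3p, -0.023 for miR-193a-5p and -0.037 for miR-365a-5p, and the pair differences 0.12 for miR-193b-5p minus miR-193a-5p, -0.0018 for miR-365a-5p minus miR-365b-5p, 0.14 for miR-193b-3p minus miR-193b-5p (exact permutation p = 0.9) and 0.40 for miR-365a-3p minus miR-365a-5p. With the local background subtracted, chosen after seeing the data, they were in the same order -0.52, -0.13, -0.43, 1.09, -0.098, 0.42 and 1.99, and 0 members were called; with the offset of 50 on the blank-corrected signal, also added, 1 member was called and no sign changed. miR-365a-5p was at -0.0062 after scaling to the median, at -0.047 after scaling to the 75th percentile and at -0.030 with none, and miR-365b-5p at 0.020 in the deposited values. Leaving out 1 array gave -0.087 to 0.18 for miR-193a-3p, -0.076 to 0.15 for miR-365a-5p, 0.39 to 0.47 for miR-193b-3p, 0.03 to 0.18 for miR-193b-5p, -0.18 to -0.02 for miR-365b-5p, -0.14 to 0.021 for miR-193b-5p minus miR-193a-5p, -0.22 to 0.011 for miR-193a-3p minus miR-193a-5p, 0.21 to 0.55 for miR-193b-3p minus miR-193a-3p, 0.062 to 0.22 for miR-365a-5p minus miR-365b-5p, and 0.0043 to 0.29 for miR-365a-3p minus miR-365a-5p.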
